A study of Mus musculus with 9 samples.

Results

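The Ifi200 genes form a family of DNA-sensing genes that lies as 1 cluster on mouse chromosome 1. The 10 members, chosen by symbol, are Ifi202b, Ifi203, Ifi204, Ifi205, Ifi207, Ifi209, Ifi211, Ifi213, Mndal and Aim2. Of these, 9 had a row among the 24296 genes of the count table, and Ifi213 is not analysed here. RNA was sequenced from the cells of the whole left knee joint, in female mice of strain 129/Sve, with Seq-Well, a method that loads cells into tiny wells and tags their polyadenylated RNA by bead. The 5 sick mice (numbered 1, 3, 4, 5 and 6) had been sensitized to methylated bovine serum albumin (mBSA) and then received it in the left knee to trigger antigen induced arthritis, which was checked in them by immunohistochemistry. The 4 healthy mice (numbered 1 to 4) received phosphate-buffered saline in that knee, and the labels do not say whether they too had been sensitized. All were 8 weeks old when arthritis was triggered and were killed 1 week later. The animals are separate mice, no sequencing batch is given for any of them, and a batch that followed the groups cannot be told apart from the disease.

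As background, a typical family protein joins an N-terminal pyrin domain, which binds other pyrin domains, to 1 or more C-terminal HIN domains, which bind DNA. Many of these genes are induced by interferons, and macrophages and other myeloid cells are a usual place of expression. Aim2 senses DNA in the cytosol and, through the adaptor Pycard, assembles an inflammasome that activates caspase 1. Ifi204 has been linked to interferon induction through STING, the product of Tmem173. Ifi202b carries HIN domains without a pyrin domain and can restrain Aim2. Mndal and Ifi203 are nuclear proteins tied to growth control and gene regulation. The remaining members, Ifi205, Ifi207, Ifi209 and Ifi211, are less well characterised.

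In the GENCODE M21 annotation of build GRCm38 the listed genes and their relatives span 680.93 kb of chromosome 1, from 173350879 to 174031810. From Aim2 at 173350879-173466040 on the plus strand the order runs through Ifi209 (173630917-173647928, plus strand), Ifi207 (173723427-173741747) and Ifi204 (173747293-173766943). It goes on through Mndal (173849126-173942491), Ifi211 (173896345-173913046), Ifi203 (173920407-173942672), Ifi202b (173962568-173982744) and Ifi205 (174011998-174031810), all on the minus strand. The annotated span of Mndal covers Ifi211 and most of Ifi203, so reads there can be hard to assign. The method counts the 3′ ends of transcripts, and some of those ends are nearly the same. Of the 50-base windows in the last 500 bases of the Ifi205 transcript, 79.2% also occurred in Ifi211, and 77.4% of those of Ifi211 occurred in Ifi205. Ifi209 shared 63.4% with Ifi214, and Mndal shared 21.95% with Ifi205. Ifi202b, Ifi203, Ifi204, Ifi207 and Aim2 shared at most 2.22% with any other gene. The values of Ifi205, Ifi211 and Ifi209 are therefore uncertain as to which copy they come from.

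Since many family genes respond to interferon, the motif GAAANNGAAA, a core of the interferon-stimulated response element, was searched on both strands (its other strand reads TTTCNNTTTC) in the 250 bases before each RefSeq start site, on GRCm38.p6. Of the 8 members with a promoter in that table, 5 held it: Ifi203, Ifi205, Ifi207, Ifi211 and Mndal. Among all genes of the table, 936 of 27025 (3.46%) held it. Among all promoters, 978 of 32851 (2.98%) did. Ifi202b, Ifi209 and Aim2 had no match in this window. The 60-base stretches around the match are printed 5′ to 3′ on the gene's strand, with the motif in capitals. They are shown because the printed stretches are much alike; the mice were 129/Sve, and the reference is another strain.
Ifi203 (chr1:173942493-173942552, minus strand): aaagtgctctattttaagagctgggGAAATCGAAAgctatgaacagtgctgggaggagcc
Mndal (chr1:173880189-173880248, minus strand): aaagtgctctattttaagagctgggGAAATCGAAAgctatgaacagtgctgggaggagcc
Ifi207 (chr1:173741816-173741875, minus strand): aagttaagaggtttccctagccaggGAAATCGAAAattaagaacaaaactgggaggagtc
Ifi205 (chr1:174031855-174031914, minus strand): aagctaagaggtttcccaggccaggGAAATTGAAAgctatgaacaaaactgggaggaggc
Ifi211 (chr1:173913049-173913108, minus strand): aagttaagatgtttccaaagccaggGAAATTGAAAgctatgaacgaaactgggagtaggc
The stretches of Ifi203 and Mndal were identical. The motif began 134 bases before the start site in Ifi205 and 35 to 41 bases before it in the other 4. The table lists a second promoter of Mndal, which held a match on the other strand, 54 bases before its start site and in a different stretch, not printed here. The other listed promoter of Ifi203 held no match. A match is a description of these letters and not a measured binding site.

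After filters 16749 cells were kept, 4549 from healthy and 12200 from sick mice, with 896930 to 4675909 counts per mouse. The median cell held 766 to 1009 counts. Haemoglobin transcripts made up 17.6% of the counts in healthy mouse 1 and 35.3 to 39.7% in healthy mice 2 to 4, against 10.2 to 27.9% in the sick mice. Mitochondrial transcripts made up 5.48 to 10.3% in the healthy group and 3.09 to 6.05% in the sick group. The tissue label is joint, but most gated cells were blood and marrow types: 8186 cells met the neutrophil markers and 74 the fibroblast markers. Only 8 barcodes occurred in more than 1 mouse.

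The 9 members together gave 8336 counts in 3340 cells (19.9% of those kept), and 1657 cells held at least 2 different members. Mndal alone gave 2899 counts (34.8%). Ifi203 followed with 1399, Ifi202b with 956, Ifi204 with 788, Ifi211 with 635, Ifi209 with 604, Aim2 with 515, Ifi207 with 292 and Ifi205 with 248. Since only 3′ ends were counted, these are levels per transcript and were not divided by length. Of the other cluster genes, Ifi214 gave 277 counts, the pseudogene Ifi203-ps 131, Ifi208 10 and Ifi206 7.

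The first question was which cells carry these transcripts. Cells were gated by how many of a type's marker genes they held (for monocytes at least 2 of F13a1, Ms4a6c, Fn1, Ccr2, Csf1r, Cx3cr1, Klf4 and Ly6c2). The family was highest in the monocyte gate, at 2158 CPM (counts per 1000000) over its 1216 pooled cells, of the 6 gates with at least 100 cells. Those cells were 7.26% of all kept cells and held 37.4% of all member counts. The share was 52.4% for Ifi205, 48.2% for Ifi211, 46.2% for Ifi207, 45.1% for Ifi204 and 44.7% for Ifi202b, but 25.8% for Ifi209 and 20.4% for Aim2. The early B-lineage gate followed at 1122.5 CPM, then granulocyte progenitors at 355 CPM, neutrophils at 238 CPM, eosinophils at 173 CPM and erythroid cells at 115 CPM. Over mice with at least 20 cells, the summed level ran from 865 to 2881 CPM in monocytes and from 699 to 1807 CPM in early B-lineage cells, so the ranges of these neighbours overlapped. Those of granulocyte progenitors (55.4 to 533 CPM), neutrophils (109 to 314 CPM) and erythroid cells (53.1 to 161 CPM) overlapped as well, while all lay below every monocyte value. Eosinophils rest on 18 counts. Of the smaller gates, macrophages stood at 1114 CPM (69 cells) and fibroblasts at 707 CPM (74 cells). Sick mice gave 62 of these macrophages and 71 of these fibroblasts, with 42 and 49 from a single mouse. Cell type, disease and mouse cannot be told apart in these 2 pooled values.

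**Figure D1:**
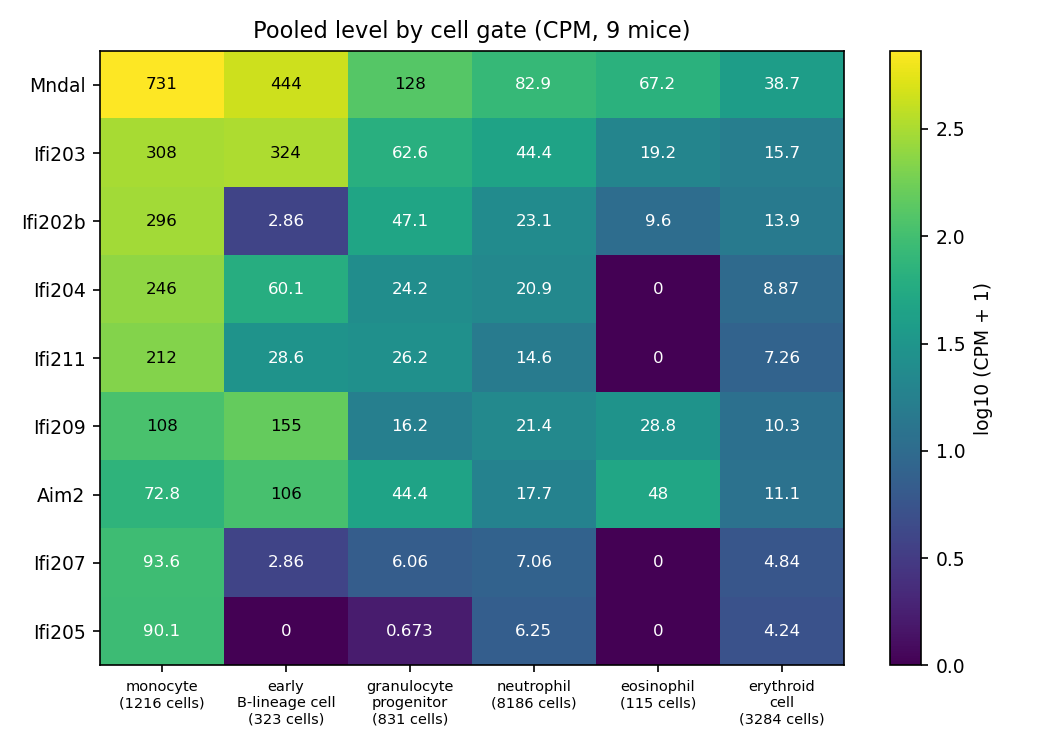
Pooled level of each member (rows) in each cell gate (columns, with the number of cells), as CPM over the 9 mice; colour is log10 of CPM + 1 and the printed number is the CPM. Gates with at least 100 cells are drawn. The monocyte column is highest for 6 of the 9 members, and Ifi203, Ifi209 and Aim2 are highest in the early B-lineage column.

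The members did not share 1 pattern over these cells. Mndal reached 731 CPM in monocytes and 444 CPM in early B-lineage cells. Ifi203 was about level in the 2 gates, at 308 CPM (95% Poisson interval 280 to 338) and 324 CPM. Ifi209 stood at 108 and 155 CPM, and Aim2 at 72.8 and 106 CPM. Ifi202b, in contrast, fell from 296 CPM in monocytes to 2.86 CPM in early B-lineage cells, where it had a single count. Ifi207 likewise had 1 count there against 93.6 CPM in monocytes. Ifi205 had none in the 323 early B-lineage cells against 90.1 CPM (75.3 to 107) in monocytes, and a single count in 831 granulocyte progenitors. These intervals cover counting error only. Aim2, Ifi203, Ifi209 and Mndal were thus present in both lineages, and Ifi202b, Ifi205 and Ifi207 were near the floor in early B-lineage cells. Ifi204 (246 CPM in monocytes and 60.1 CPM in early B-lineage cells) and Ifi211 (212 and 28.6 CPM) lay between, so the members did not split into clean sets. Over the 6 gates with at least 100 cells, the log2 levels of Ifi205 and Ifi207 correlated at r = 0.98 and those of Ifi202b and Aim2 at r = 0.15. Those of Ifi204 correlated with both Ifi203 (r = 0.90) and Ifi207 (r = 0.86). These values are a description over 6 points that share libraries. Within the monocyte gate, 27.9% of cells held no member, 23.5% held 1, and 2 cells held 8.

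Low values in other gates have to be read beside free RNA. S100a8, a transcript abundant in neutrophils, stood at 117520 CPM in the neutrophil gate and at 18549 CPM in the monocyte gate. Ngp, a marker of the neutrophil gate, stood at 21705 and 3478 CPM. How much of either in monocytes is free RNA and how much the cells' own was not tested. Of all kept cells, 8377 (50.01%) qualified for several gates. A second gate, chosen after the data were seen, asked that a cell's markers also stand above their mean share in all cells. It gave the family 1861 CPM in monocytes, 756 CPM in early B-lineage cells, 111 CPM in neutrophils and 82.9 CPM in erythroid cells, the same order for these 4 types. S100a8 stood no lower under that gate, at 27763 CPM in monocytes (18549 before) and 35153 CPM in early B-lineage cells (14117 before).

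Of 8307 other genes with at least 200 counts, the 5 whose levels over the 6 gates were most like the summed family were Filip1l (Pearson r = 0.997 on log2 of CPM + 10), Cldnd1 (0.997), Igsf8 (0.991), Ctdsp2 (0.989) and Papd4 (0.988). Filip1l, for example, stood at 101 CPM in monocytes, 77.3 CPM in early B-lineage cells and 25.9 CPM in neutrophils.

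The main comparison asked whether the members differed between sick and healthy joints. All kept cells of a mouse were added up, and the sums were scaled with edgeR's trimmed mean of M-values (TMM), and tested with its quasi-likelihood test. Ifi205 and Mndal rose in sick joints, and 6 further members had positive fold changes that did not pass the test. Aim2 had a fold change below 0. Genes called at an adjusted p under 0.05 made up 0.94% of the 10323 tested, and 2 of 9 members were among them; 0.639% of genes were called as higher in sick joints. At an unadjusted p under 0.05 there were 7 of 9 members and 13.8% of genes. Ifi205, 1 of the 2 called, passed the filter on low counts through the sick mice only. These counts of members are therefore a description. The median log2 fold was 0.86 over the members and -0.02 over all genes tested.

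Mndal, the most abundant member, stood at 106, 62.8, 102 and 72.9 CPM in healthy mice 1 to 4. The values of sick mice 1, 3, 4, 5 and 6 were 182, 156, 159, 167 and 116 CPM. Every sick mouse lay above every healthy one. The log2 fold was 0.85 ± 0.18 (SE), with an edgeR adjusted p of 0.0362. Ifi205 is the rarest member. Its healthy values were 5.14, 5.13, 4.89 and 0.972 CPM, from 19 counts in all, and it passed the filter on low counts through the sick mice only. Its sick values were 14.2, 14.96, 16.7, 17.9 and 8.62 CPM. The groups did not overlap, with sick mouse 6 the lowest of its group. The log2 fold was 1.80 ± 0.38, with an edgeR adjusted p of 0.0356.

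Among the DNA-sensing and regulatory members, Ifi202b stood at 22.3, 16.7, 37.2 and 17.5 CPM in healthy mice and at 65.1, 57.6, 61.0, 54.0 and 27.5 CPM in sick mice. Sick mouse 6 fell below healthy mouse 3, and the other 4 sick mice lay above all healthy mice. The log2 fold was 1.17 ± 0.28 (edgeR adjusted p = 0.0709). Ifi204 had healthy values of 24.0, 17.9, 28.4 and 17.5 CPM and sick values of 49.6, 44.5, 47.8, 45.9 and 27.5 CPM. Sick mouse 6 was again the exception, just under healthy mouse 3. Its log2 fold was 0.95 ± 0.23 (edgeR adjusted p = 0.0655). Ifi203 stood at 43.4, 20.5, 55.7 and 46.6 CPM in healthy mice and at 99.5, 68.7, 77.1, 76.1 and 61.0 CPM in sick mice. Its groups did not overlap, at a log2 fold of 0.86 ± 0.23 (edgeR adjusted p = 0.102). Ifi211 did not overlap either, at 7.77 to 22.3 CPM against 26.5 to 40.8 CPM (log2 fold 0.96 ± 0.25, edgeR adjusted p = 0.102). All sick mice thus lay above all healthy mice for 4 of 9 members, against 2.85% of all genes tested. Ifi205 is 1 of these 4 and was tested through the sick mice only. It also shares most of its 3′ end with Ifi211, and the span of Mndal covers Ifi211 and most of Ifi203. The 4 may therefore not be separate readings, and the count is a description.

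Ifi207 lay between 6.84 and 13.1 CPM in the healthy group and between 9.78 and 18.9 CPM in the sick group (log2 fold 0.70 ± 0.29, edgeR adjusted p = 0.301). Ifi209 ranged from 15.4 to 31.1 CPM and from 26.6 to 46.2 CPM (log2 fold 0.53 ± 0.26, edgeR adjusted p = 0.381). The groups overlapped in both genes. Aim2, the inflammasome sensor, stood at 26.3, 21.8, 35.2 and 33.0 CPM in healthy mice and at 22.6, 22.9, 26.5, 21.7 and 27.5 CPM in sick mice. The values overlapped widely, with a log2 fold of -0.27 ± 0.20 (edgeR adjusted p = 0.578). Without scaling between libraries this fold turned to 0.0498, and the median of all genes moved to 0.29.

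**Figure D2:**
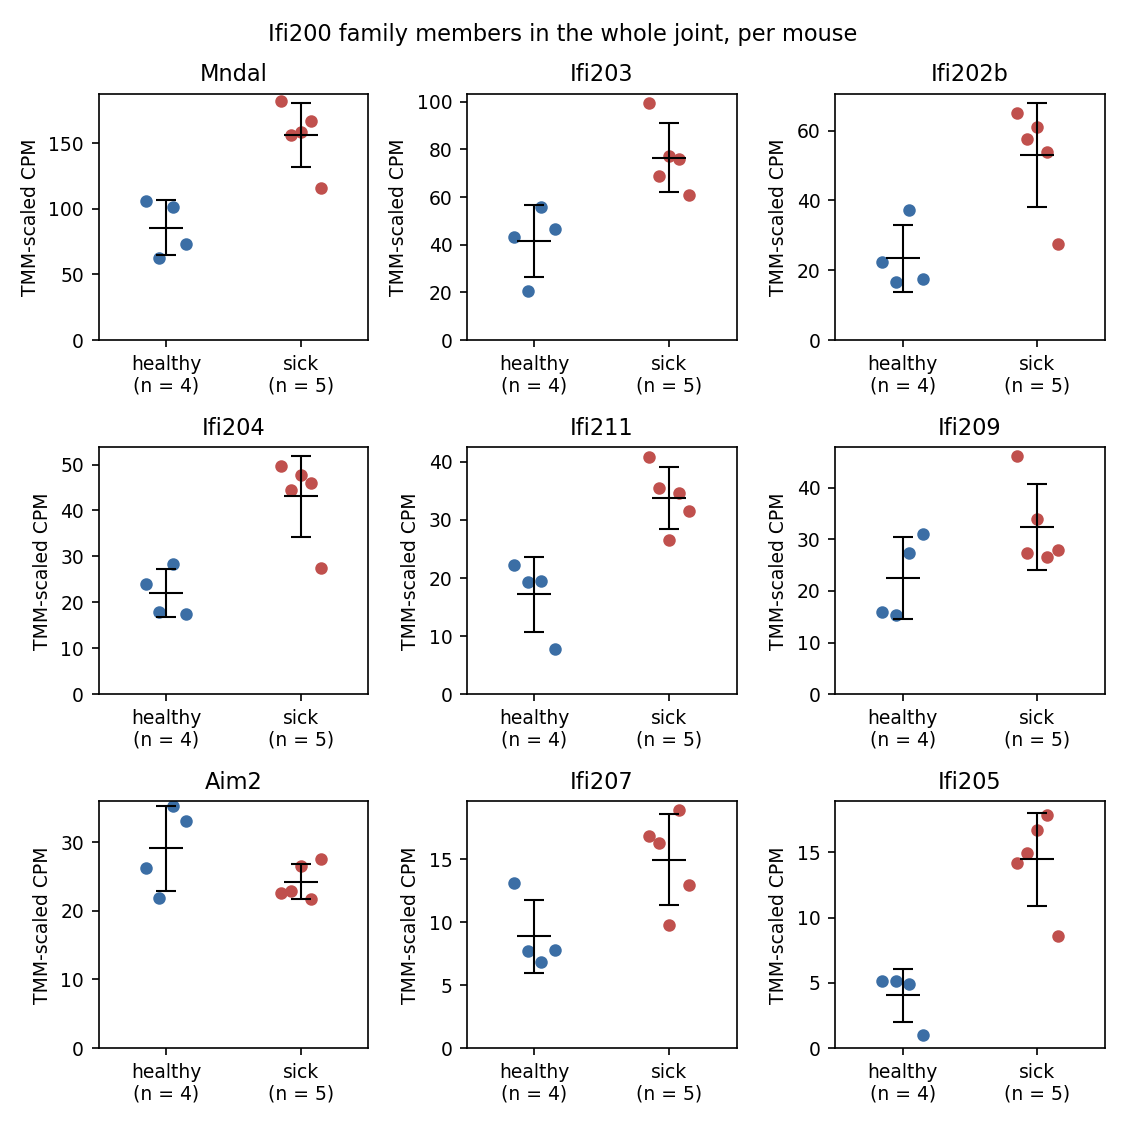
TMM-scaled CPM of the 9 members in the whole joint, 1 panel per gene; points are mice, the horizontal mark is the group mean and the bar its SD (4 healthy, 5 sick), and each y axis starts at 0. The groups separate for Mndal, Ifi203, Ifi211 and Ifi205 and overlap widely for Aim2.

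The calls were at the edge of what 4 and 5 mice resolve. DESeq2 called 6 of the 9 members (Ifi202b, Ifi203, Ifi204, Ifi205, Ifi211 and Mndal) where it called 1.04% of genes, and edgeR with no filter on low counts called 6 where it called 1.16%. Those shares are over 24255 and 24296 genes, many of them too rare for the filter, which 10323 passed. Both members' calls were lost without any 1 of healthy mice 2, 3 and 4 or sick mice 1, 3, 4 and 5. The edgeR adjusted p then lay between 0.054 and 0.116 for Ifi205 and between 0.054 and 0.149 for Mndal. Without healthy mouse 3 Ifi202b was called instead (adjusted p = 0.0341). Without sick mouse 6, 4 members were called: Ifi202b (adjusted p = 0.0107), Ifi204, Ifi205 and Mndal. Against healthy mouse 1 alone, the healthy library with the lowest haemoglobin share, the log2 fold was 0.58 for Mndal and 1.49 for Ifi205; with 1 healthy mouse a missed call says little. With haemoglobin, mitochondrial and ribosomal RNA-like transcripts left out, the folds were 0.85 and 1.80 and both genes were called.

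In summed counts, more cells of a type and more RNA per cell cannot be told apart. The 8 monocyte markers summed to 502 to 1581 CPM in healthy and 885 to 1865 CPM in sick joints, and gated monocytes made up 2.63 to 11.6% of the cells in healthy and 3.51 to 11.2% in sick mice. The 11 neutrophil markers summed to 11029 to 31891 CPM against 22955 to 38357 CPM, and the 9 fibroblast markers to 41.2 to 84.5 CPM against 89.4 to 1019 CPM. The part of these shifts in the members' differences was not tested, apart from the fit that follows. The 9 macrophage markers summed to 23.1 to 51.6 CPM against 29.0 to 320 CPM. With the cells of the monocyte, macrophage and dendritic cell gates left out (second gate), the log2 folds were 0.83 for Mndal (edgeR adjusted p = 0.0641), 1.03 for Ifi202b, 0.92 for Ifi203, 0.88 for Ifi204, 0.92 for Ifi211 and 0.49 for Ifi209. Ifi205 and Ifi207 then had too few counts to be tested.

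Within the monocyte gate, all 9 mice were tested. The gate held 23 to 122 cells and 26933 to 195722 counts per healthy mouse. For sick mice it held 91 to 408 cells and 109632 to 482565 counts. Healthy CPM of the rarer members here therefore rest on few counts. Ifi205 had 19 counts over all cells of the healthy mice. The 8 members with enough counts had log2 folds from 0.33 to 1.68. Ifi205 passed that filter through the sick mice only, and Aim2 did not pass it, so these 8 are not the whole family. With no filter, 8 of the 9 members had a positive log2 fold, and Aim2 had a negative one. Positive folds were usual in that fit: the median was 0.42 over its 19632 genes and 0.99 over the members. None of the 8 was called by edgeR, where 0.365% of the 2192 genes tested were. At an unadjusted p under 0.05 there were 4, against 9.99% of genes, and DESeq2 called none of 9 (0.0611% of genes), with 5 unadjusted (2.7%). With no filter on low counts edgeR called 1 of 9 (0.239% of genes). The DESeq2 and no-filter shares include many genes too rare for the filter. Mndal stood at 686, 535, 730 and 339 CPM in healthy and at 1078, 842, 1080, 1184 and 884 CPM in sick mice. Every sick value exceeded every healthy one (log2 fold 0.75 ± 0.22, edgeR adjusted p = 0.125). Ifi205 stood at 43.6, 107, 28.1 and 0 CPM in healthy and at 115, 116, 112, 204 and 138 CPM in sick mice, again without overlap (log2 fold 1.68 ± 0.49, edgeR adjusted p = 0.132). These 2 of 8 members stand beside 3.56% of genes whose sick values all lay higher. As Ifi205 was tested through the sick mice only, that count is a description. Ifi202b (0.67 ± 0.35), Ifi203 (0.65 ± 0.29), Ifi204 (0.70 ± 0.29), Ifi211 (0.73 ± 0.38) and Ifi209 (0.69 ± 0.44) had overlapping groups. With 1 mouse left out these log2 folds ran from 0.13 to 1.19 for Ifi202b, from 0.49 to 0.98 for Ifi203, from 0.42 to 0.97 for Ifi204, from 0.32 to 1.08 for Ifi211 and from 0.28 to 1.14 for Ifi209. The second gate gave 0.75 for Mndal (edgeR adjusted p = 0.0824) and 1.71 for Ifi205 (0.0930). There edgeR called none of 9 members and 1.01% of genes, with 6 members and 10.4% of genes at an unadjusted p under 0.05.

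Neutrophils held few member transcripts. Ifi202b and Ifi204 passed the filter on low counts through the sick mice only, and Ifi203 and Ifi209 reached its minimum in 2 and 1 of the 4 healthy mice, so the counts of members tested there are a description. Of the 6 members tested there none was called by edgeR, where 1.38% of genes were, and 5 had an unadjusted p under 0.05, against 14.6% of genes. DESeq2 called none of the 7 to which it gave an adjusted p, and 0.582% of genes. Of the 9 members 7 had an unadjusted DESeq2 p under 0.05, as did 5.61% of genes. These DESeq2 shares are over 23548 genes, many of them too rare for the filter, which 5852 passed. With no filter on low counts edgeR called 3 of 9 and 1.51% of genes. Ifi202b came nearest, at 8.41, 5.52, 12.6 and 6.80 CPM in healthy and 21.0, 32.8, 24.4, 30.2 and 17.5 CPM in sick mice, without overlap (log2 fold 1.60 ± 0.40, edgeR adjusted p = 0.0505). Aim2 went the other way, at 21.9, 22.1, 44.0 and 23.8 CPM in healthy and 12.4, 15.7, 17.9, 13.3 and 19.5 CPM in sick mice. All its sick values lay below the healthy ones, as in 2.0% of genes, at a log2 fold of -0.79 ± 0.32 (edgeR adjusted p = 0.271). Ifi203 had a log2 fold of 1.08 ± 0.33 (edgeR adjusted p = 0.132), Ifi204 0.92 ± 0.38, Mndal 0.68 ± 0.23 (also without overlap; with Ifi202b these are 2 of 6 members, against 2.41% of genes) and Ifi209 0.26 ± 0.36. Under the second gate only Ifi203 and Mndal had enough counts in neutrophils, in both cases through the sick mice alone, and neither was called, as 0.608% of genes were. Healthy mice stood at 0 to 12.2 CPM for Ifi203 and 0 to 25.5 CPM for Mndal, and sick mice at 16.9 to 29.9 and 34.1 to 86.2 CPM.

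**Figure D3:**
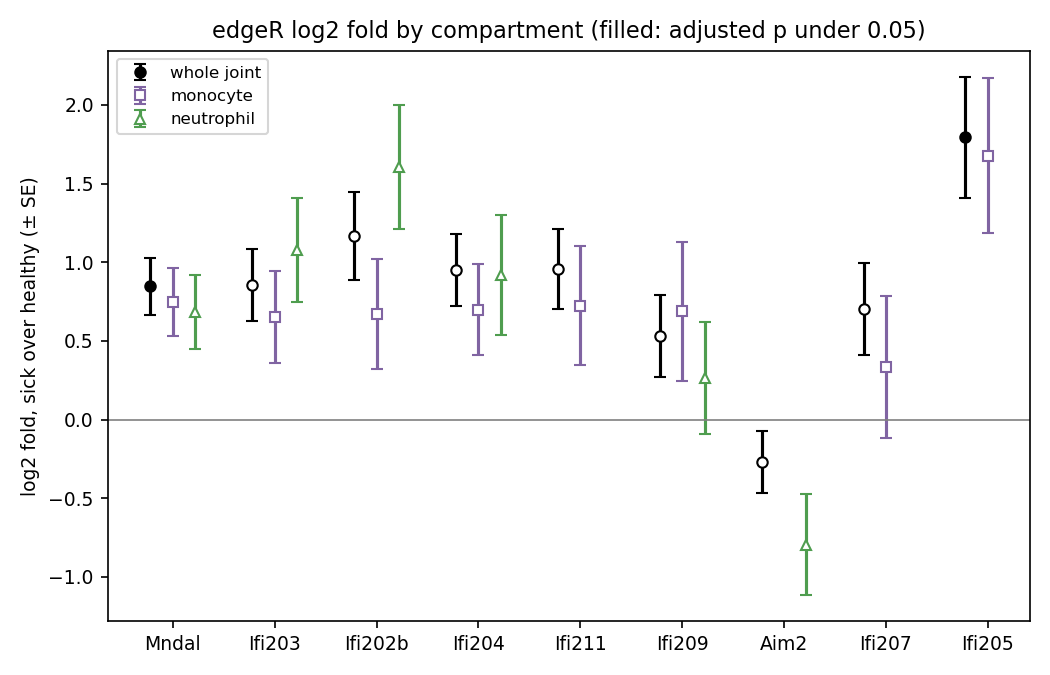
Log2 fold of sick over healthy with its standard error for each member in the whole joint (circles), the monocyte gate (squares) and the neutrophil gate (triangles); filled symbols have an edgeR adjusted p under 0.05, and members with too few counts have no symbol. Mndal and Ifi205 in the whole joint are the filled points, and Aim2 lies below 0 where it could be tested.

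In granulocyte progenitors and erythroid cells only Mndal had enough counts. Its log2 fold was 0.68 ± 0.37 (edgeR adjusted p = 0.522) and 0.64 ± 0.29 (0.448), where 1.28% and 1.24% of genes were called. Under the second gate the erythroid value was -0.0539, and in early B-lineage cells (3 healthy and 5 sick mice) Mndal had 0.99 ± 0.34 (edgeR adjusted p = 0.227). There it stood at 245, 236 and 191 CPM in healthy mice 1, 3 and 4 and at 533, 517, 344, 462 and 321 CPM in the sick mice, without overlap, as in 4.95% of genes, and 1.03% of genes were called. The difference of the disease effect between a gate and neutrophils was tested in 1 edgeR fit with the mouse as a term. No member was called for monocytes, granulocyte progenitors or erythroid cells, where 0.0, 0.0 and 0.0513% of 7796 genes were. Unadjusted p under 0.05 occurred for 1 of the 27 tests, that of Ifi202b in granulocyte progenitors (log2 difference -1.77 ± 0.66). Under the second gate 8 of 45 tests had an unadjusted p under 0.05, among them Ifi209 in all 5 gates (log2 difference -4.51 to -5.20). Those 5 tests share 1 neutrophil reference, in which Ifi209 reached the minimum of the filter on low counts in no mouse. With cells of exactly 1 gate 3 of 18 tests had an unadjusted p under 0.05. None passed adjustment. The share of all genes at an unadjusted p under 0.05 is not given for these tests, so their counts are a description. Without healthy mouse 1, 172 of 8325 genes were called for erythroid cells and 29 for monocytes, no member among them. A disease effect limited to 1 cell type was not shown by these tests.

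The share of cells with a count was compared over mice after each cell was thinned to 500 counts, since deeper cells show more genes. The same test was run on every gene that is no gate marker and had a mean share over all mice of at least 1%. Most genes had the higher mean share in sick mice: 74.4% of 4487 genes in neutrophils, 76.2% of 4253 in erythroid cells, 67.9% of 6374 in granulocyte progenitors and 64.3% of 6170 in monocytes. Among 19 member and gate combinations, 18 had the higher mean in sick mice. An exact two-sided permutation p under 0.05 occurred for 10 of the 19. By gate these were 4 of 9 in monocytes (11.2% of genes), 3 of 3 in neutrophils (19.8%), 2 of 6 in granulocyte progenitors (12.0%) and 1 of 1 in erythroid cells (17.5%). Healthy means were under 1% for Ifi203 (0.91%) and Ifi209 (0.83%) in neutrophils and for Ifi204 (0.76%) and Ifi211 (0.54%) in granulocyte progenitors. Those combinations passed the filter through the sick mice only, so the counts in these 2 gates are a description. Adjusted over all genes of a gate, no combination and no other gene passed. With 126 splits no p can lie below 0.00794, so a gene could pass only if very many genes tied at that value. The missing calls therefore say little.

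In monocytes the share positive for Ifi205 was 1.96, 2.35, 0.32 and 0% in healthy mice and 5.48, 4.65, 6.54, 8.85 and 5.00% in sick mice. The groups did not overlap (exact permutation p = 0.00794, the smallest that 126 splits allow, and 0.300 adjusted over all genes). The Mndal share was 17.5% ± 8.05 (SD, n = 4) and 31.7% ± 6.25 (n = 5), with an exact permutation p of 0.0397 (adjusted 0.405). The Aim2 share was lower in sick mice, at 3.85, 12.4, 3.97 and 6.09% against 3.55, 3.47, 2.43, 3.55 and 2.84% (exact permutation p = 0.00794, adjusted 0.300). Healthy mouse 2, with 19 monocytes of that depth, had the highest Aim2 value, and without it the Aim2 difference went from -3.41 to -1.47 percentage points. Unthinned, the Aim2 share was 11.6% and 6.35%, and the Ifi205 share 2.36% and 10.8%. Under the second gate 5 of 9 members had an exact permutation p under 0.05 in monocytes, against 14.1% of genes. Ifi205 was there at 1.08% and 5.44%, Mndal at 13.8% and 28.2%, and Aim2 at 3.82% and 3.02% (exact permutation p = 0.333).

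In neutrophils Mndal was positive in 2.11% ± 0.41 of cells in healthy and 4.22% ± 0.87 in sick mice, and Ifi203 in 0.91% ± 0.52 and 2.56% ± 0.37 (exact permutation p = 0.00794 for both, adjusted 0.154). Ifi203 reached 1% in the sick mice only. So did Ifi202b, at 0.36% ± 0.21 and 1.13% ± 0.36, and Ifi204, at 0.47% ± 0.14 and 1.07% ± 0.24. These last 2 did not pass the filter on the mean over all mice and are given as values. Aim2 stood at 0.95% and 0.81%. Erythroid cells, a type not known for these genes, are set beside them: Mndal was at 1.15% ± 0.44 and 2.01% ± 0.36 (exact permutation p = 0.00794, adjusted 0.164), Ifi203 at 0.69% and 0.81%, and Ifi202b at 0.24% and 0.77%. Median depth was 818 counts in neutrophils and 1194 in erythroid cells. Whether these erythroid counts are free RNA was not tested. The neutrophil shares of Mndal and Ifi203 stood above the erythroid ones in the sick mice, while those of Ifi202b (1.13 against 0.77%) were close to them.

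**Figure D4:**
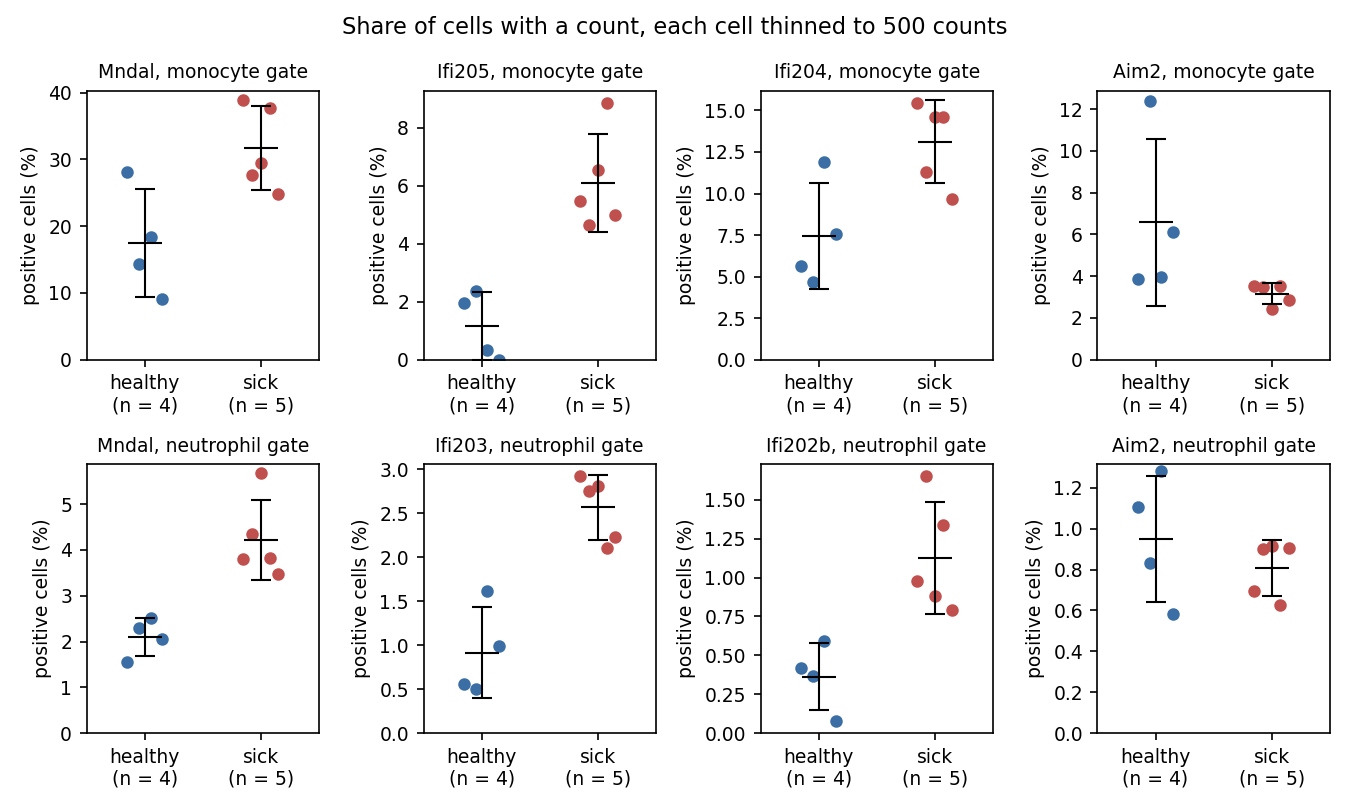
Share of cells (%) with at least 1 count after thinning to 500 counts, for 4 members in the monocyte gate (top) and 4 in the neutrophil gate (bottom); points are mice, marks and bars the mean and SD, and each y axis starts at 0. Sick values all lie higher for Ifi205 in monocytes and for Mndal, Ifi203 and Ifi202b in neutrophils, and lower for Aim2 in monocytes. Ifi203 and Ifi202b in neutrophils reached a mean of 1% in the sick mice only. Under the second gate the mean Aim2 shares in monocytes were 3.82% and 3.02% (exact permutation p = 0.333). The share of all genes that separate in this way is not given, so the panels are a description.

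The genes around these sensors were listed by role. Of 16 tested genes of interferon receptors and signalling, 4 rose and none fell, against 66 and 31 of 10323 genes. Irf7, a transcription factor that amplifies interferon production, went from 15.4, 2.56, 8.80 and 8.74 CPM in healthy to 68.8, 67.0, 92.1, 100.2 and 65.3 CPM in sick mice (log2 fold 3.00 ± 0.30, edgeR adjusted p = 5.87e-05). Irf9, the DNA-binding part of the factor ISGF3, had a log2 fold of 1.71 ± 0.18 (edgeR adjusted p = 0.000123). Usp18, which dampens interferon receptor signalling, had 2.93 ± 0.53 (edgeR adjusted p = 0.0113). The median over the list was 0.15, and the receptor genes Ifnar1 (0.15), Ifnar2 (0.14) and Ifngr1 (-0.21) did not pass. Nor did Ifngr2, at 0.57 ± 0.22 (edgeR adjusted p = 0.258).

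Of 25 tested genes of cytosolic DNA sensing, 1 rose: Zbp1, a sensor of Z-form nucleic acids. It stood at 0, 2.56, 0.98 and 1.94 CPM in healthy and at 13.6 to 22.1 CPM in sick mice (log2 fold 3.98 ± 0.48, edgeR adjusted p = 0.000501). The list's median log2 fold was -0.06. Mb21d1, which encodes the sensor cGAS, had 0.49 ± 0.21 (edgeR adjusted p = 0.306), and Tmem173, which encodes STING, had -0.09 ± 0.34 (0.932). The next by p were Adar (0.89 ± 0.26), Prkdc (-1.04 ± 0.35) and Dhx9 (-0.44 ± 0.16), none of which passed. No gene of 13 tested inflammasome genes was called by edgeR or by DESeq2, with 2 at an unadjusted edgeR p under 0.05; the median log2 fold was 0.40. Il1b, the cytokine that caspase 1 releases, had 0.65 ± 0.28 (edgeR adjusted p = 0.312), Gsdmd, the pore-forming gasdermin, 0.66 ± 0.29, Casp1 0.40 ± 0.19 and Nlrp3 0.42 ± 0.21. Pycard, through which Aim2 acts, had 0.13 ± 0.21.

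The genes that flank the cluster were tested for comparison. Of 5 tested flanking genes 1 had a positive log2 fold, and edgeR called none (1 at an unadjusted p under 0.05). Fcer1a had a log2 fold of -0.55 ± 0.43 (edgeR adjusted p = 0.606), Kmo -0.16 ± 0.33 and Fh1 0.35 ± 0.22. Inside the cluster, Ifi214 had 0.95 ± 0.37 (edgeR adjusted p = 0.258), close to the members, and its 3′ end is the one shared with Ifi209.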

How the data were processed

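The deposited table holds raw counts per gene and cell, with a barcode's mouse given in its column name, and every value was checked to be whole. Per the labels' protocols, reads were handled with bcl2fastq, Picard and the Drop-seq protocol (version 1.0.1), rounds of sequencing of a sample were merged, and STAR was the aligner. The labels name GRCh38 in one place, and the submitters' processing notes name GRCm38 and mm9. Gene symbols are those of the mouse; 22894 of 24296 (94.2%) stand in GENCODE M21, from which positions were taken. How reads that fit several genes were counted is not given in the sources used here.

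A cell was kept if it held 200 genes or more and no more than 20% mitochondrial counts; 16749 of 16751 passed. No doublet caller was run; a cell that qualified for several of 17 gates went to the one with the most markers relative to its minimum, and ties stayed ungated. Counts were summed per mouse over all cells and per gate (gates with 20 or more cells in 3 or more mice of both groups). edgeR 4.0.16 (R 4.3.3; filterByExpr, TMM, quasi-likelihood test) was run on the counts, with Benjamini-Hochberg adjustment over all genes tested at 0.05. CPM are TMM-scaled except the pooled and summed levels by gate and the marker sums. DESeq2 1.42.0, other scalings, filters, gates and left-out mice were alternatives. Shares of genes called by DESeq2 or with no filter are over all genes with a p, including genes too rare to pass the filter. They are therefore not on the same footing as the filtered edgeR shares. Shares were tested by exact permutation of mice after thinning each cell to its exact expectation at 500 counts; the report gives them with a filter on the mean over all mice and adjustment over all genes, added after seeing the data in place of a filter on either group and adjustment over the members. Named genes were the members in every comparison, up to 4 genes of each list with the smallest p in the whole joint, and the 5 genes most like the family; 2 genes that this rule names are not reported here; other genes named (Mb21d1, Tmem173, Pycard, Ifnar1, Ifnar2, Ifngr1, Ifngr2) were chosen for their role after values were seen. Python 3.11.15 (pandas 2.3.3, scipy 1.17.1, numpy 2.4.6; adjustment with statsmodels 0.14.6) was used.

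The edgeR script was tested on simulated data. The members and the gene lists were chosen with earlier results of these data known, and the second gate and the fit without monocytes, macrophages and dendritic cells were added after seeing the data.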

Additional observations from a re-analysis of the deposited data

Results flagged for a closer look

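In 50 groups of 4 or 5 mice (a member within a comparison), 6 had 1 mouse set apart by Dixon's ratio, where chance gives about 1 in 20. In the whole joint these were Ifi204 in sick mouse 6 (27.5 CPM, the other sick mice at 44.5 to 49.6), Ifi205 in healthy mouse 4 (0.972 CPM, the others at 4.89 to 5.14) and Ifi207 in healthy mouse 1 (13.1 CPM, the others at 6.84 to 7.77). In the monocyte gate it was Ifi205 in sick mouse 5 (204 CPM, the others at 112 to 138). In the neutrophil gate they were Aim2 in healthy mouse 3 (44.0 CPM, the others at 21.9 to 23.8) and Mndal in sick mouse 4 (135 CPM, the others at 78.2 to 90.7). The cause was not tested for any of them.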

How the results depend on the processing

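In the whole joint 2 members were called. The count was 6 with DESeq2 and with no filter on low counts, 5 with no scaling, 1 with cells of at least 400 genes and with gated cells only, 0 without monocytes, macrophages and dendritic cells, and 0 with healthy mouse 1 alone, which says little with an arm of 1 mouse. Leaving out 1 mouse gave 0 to 4. Over all genes, 66 rose and 31 fell of 10323 in the main fit, and 108 and 18 with no scaling. No scaling also moved the median log2 fold of all genes to 0.29. DESeq2 called 1.04% of genes and the fit with no filter 1.16%, both over genes that include many too rare for the filter. With at least 400 genes per cell 38 rose and 13 fell of 9520, and with gated cells only 66 and 29 of 9825. Without monocytes, macrophages and dendritic cells 55 rose and 33 fell of 9615. With 1 mouse left out 39 to 150 rose and 14 to 105 fell. The folds of all members but Aim2 kept their sign under every whole-joint setting in which they were tested; Aim2 turned to 0.0498 with no scaling. In neutrophils the count of 0 became 3 with no scaling and 3 with no filter, and 0 to 1 with 1 mouse left out. In monocytes it became 1 with no filter. Of 5852 genes in neutrophils, 42 rose and 39 fell with scaling, and 75 and 13 with no scaling, which moved their median log2 fold to 0.28. With no filter 1.51% of genes were called in neutrophils and 0.239% in monocytes, again with such rare genes included. The mouse number as a replicate block gave 0 members in the whole joint; same-numbered mice deviated together with correlations of 0.18, -0.04 and 0.07 (numbers 1, 3 and 4), so the numbers were not taken to pair them. In neutrophils the Ifi209 fold ran from -0.0133 to 0.6955 with 1 mouse left out, and the Mndal fold in erythroid cells was -0.0539 under the second gate.

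As designed, the shares were adjusted over 22 member and gate combinations alone, and a combination could enter through the sick mice only; 7 were then called. That became 4 at 300 counts and 0 with 1 more marker, with exactly 1 gate and under the second gate. It was 0 to 9 with 1 mouse left out. It was 0 of 19 with the filter on the mean over all mice and adjustment over all genes, the result given above. The lowest exact permutation p was 0.0179 without 1 healthy mouse and 0.0286 without 1 sick mouse, so a count of 0 there says little. Differences in share (percentage points) changed sign for Aim2 in granulocyte progenitors (-0.12 unthinned, -0.11 at 300 counts, -0.61 to 0.55 with 1 mouse left out), Ifi209 in granulocyte progenitors (-0.4438 to 0.0366), Ifi209 in monocytes (-0.46 with 1 more marker), Aim2 in monocytes (0.56 with exactly 1 gate) and Mndal in erythroid cells (-0.24 with exactly 1 gate). The median family level in neutrophils moved from 237 to 108 CPM under the second gate. The cause of these changes was not tested. The counts for the pathway lists stayed within 1.5 times. For differences between gates no member was called under any setting run, while the calls over all genes for erythroid cells were 4, then 3 under the second gate, 81 of 2654 genes with exactly 1 gate and 172 of 8325 without healthy mouse 1, which also gave 29 for monocytes in place of 0. Rare members limit the depth: Ifi205 had 19 counts in all healthy mice.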
